A study of Ovis aries with 115 samples.

Results

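The change of the cervical transcriptome between the follicular and the luteal phase of a synchronised oestrous cycle was compared between Belclare and Suffolk ewes. The libraries are those whose labels and titles give the breed Belclare or Suffolk, the induced cycle, and the follicular or luteal phase. They are 41 of the 115 libraries of the series: 10 Belclare follicular, 10 Belclare luteal, 11 Suffolk follicular and 10 Suffolk luteal. The labels give cervix taken post mortem and poly(A) RNA, and each library is treated here as 1 ewe, which the labels do not state. Suffolk and Belclare are Irish breeds that the study describes as of low and medium fertility. The study's methods describe multiparous ewes that were given an intravaginal progestagen sponge followed by equine chorionic gonadotrophin, with the follicular phase checked on the ovaries after slaughter. All 4 groups share the synchronisation treatment. The day of luteal sampling is not given in the sources used here, so breed and any difference in luteal stage cannot be told apart. The labels give neither age nor batch.

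The interaction asks whether the luteal change differs between the breeds. For each gene it is the luteal over follicular log2 fold change in Suffolk minus that in Belclare, so a positive value means that the luteal level relative to the follicular level was higher in Suffolk. As background, the follicular phase of the cycle is dominated by oestradiol from the growing follicle, and the luteal phase by progesterone from the corpus luteum. Both hormones act on the epithelium, stroma and smooth muscle of the cervix through nuclear receptors. Around oestrus the cervix secretes more fluid mucus and its connective tissue loosens, and under progesterone the mucus becomes sparse and the canal tight.

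The cervix changed strongly with phase in both breeds, and no gene met the thresholds for a different change in the breeds in the test used throughout. Of 14944 genes tested, 2583 (17.3%) were differentially expressed genes (DEGs) between phases in Suffolk, 1261 higher and 1322 lower in the luteal phase. In Belclare 3489 genes (23.3%) were DEGs, 1624 higher and 1865 lower. A DEG had an adjusted p under 0.05 in edgeR's quasi-likelihood test and a fold change above 1.5. For the interaction, edgeR called 0 genes (0%), the lowest adjusted p was 0.0923, and 1637 genes (11%) had an unadjusted p under 0.05, 926 positive (6.2%) and 711 negative (4.76%). This count depends on the method: DESeq2's Wald test called 30 genes and its likelihood ratio test 21, and edgeR called 36 when all 12 groups of the series shared the estimate of spread. Genes named for the interaction are given with the edgeR adjusted p, and with that of DESeq2 where it made a call.

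The libraries held between 12238996 and 31261671 counts (median 17455002). On average over these libraries 3 counts are 0.173 CPM, where CPM is a gene's count scaled to the size of its library. Libraries of a group differed beyond counting noise in all 190 pairs (chi-square over degrees of freedom at least 25.3). Transcripts of columnar epithelium, fibroblasts, smooth muscle and endothelium were detected in every ewe, with at most 2 identifiers at 0, those of the smooth muscle list. The summed level of 6 smooth muscle identifiers ran from 28.7 to 2281 CPM in 40 ewes and reached 13839 CPM in Belclare follicular replicate 2. Of the variance of log2 CPM over all tested genes, 24.6% lay between phases, 5.85% between breeds and 3.14% in the interaction, and 66.4% lay between ewes within the 4 groups.

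**Figure D1:**
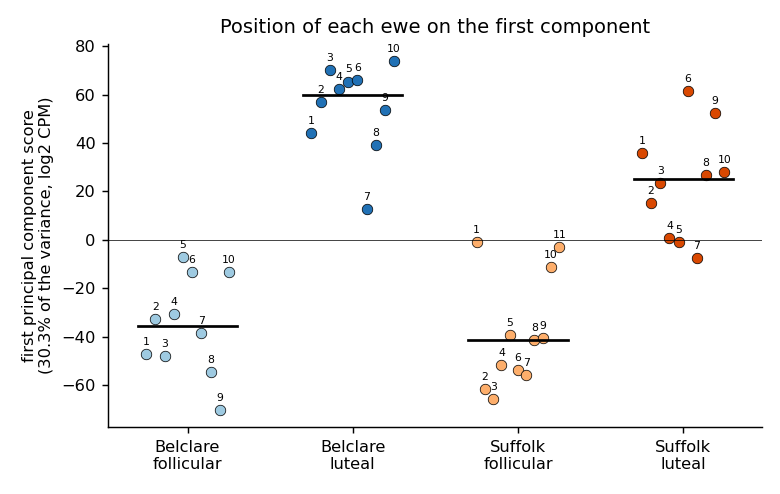
The vertical axis gives the score of each ewe on the first principal component of log2 CPM, which holds 30.3% of the variance, for the 4 groups on the horizontal axis, with replicate numbers beside the points and bars at the group medians. The Belclare phases are separate on this axis, whereas 3 Suffolk luteal ewes (replicates 4, 5 and 7) lie near 0, beside 2 Suffolk follicular ewes (replicates 1 and 11).

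On the first principal component, Belclare follicular ewes scored from -70.4 to -7.16 (median -35.6) and Belclare luteal ewes from 12.6 to 73.8 (median 59.7), so these groups did not overlap. Suffolk follicular ewes scored from -65.8 to -0.759 (median -41.5) and Suffolk luteal ewes from -7.35 to 61.3 (median 25.3). Suffolk luteal replicate 7 had the lowest luteal score, and replicates 5 and 4 followed at -1.02 and 0.711. Replicates 6 and 9 of the same group scored 61.3 and 52.3, within the range of the Belclare luteal ewes. The median SD of log2 CPM over all genes was 0.353 in Suffolk luteal ewes and between 0.307 and 0.345 in the other groups. Over the 3288 genes called for the mean phase change it was 0.606 in Suffolk luteal ewes and 0.615 in Belclare follicular ewes, the highest of the 4 groups.

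Most of the phase response was shared in direction. Of the DEGs, 1718 were called in both breeds, which is 66.5% of the Suffolk and 49.2% of the Belclare DEGs, and 1716 of these had the same direction. The 2 comparisons share no library. Across all tested genes the log2 fold changes correlated with Pearson's r of 0.779 and Spearman's rho of 0.745, where the points are genes measured in the same libraries and are not independent. A further 865 genes were called in Suffolk alone and 1771 in Belclare alone, of which 216 and 578 had an unadjusted interaction p under 0.05. Being called in 1 breed alone therefore did not amount to a tested difference.

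The changes were larger in Belclare more often than in Suffolk. For the 3288 genes (22%) called for the phase change averaged over both breeds, 99.4% had the same sign in both, and 66% changed more in Belclare. Their median absolute log2 fold change was 1.03 in Belclare and 0.832 in Suffolk. The share that changed more in Belclare was between 60.6% and 69% when any 1 ewe was left out, the lowest being without Suffolk luteal replicate 7. It was 59.8% without both Suffolk luteal replicates 2 and 7, an alternative chosen after the data were seen. Among the 1637 genes with an unadjusted interaction p under 0.05, 622 changed the same way in both breeds and more in Belclare, 235 the same way and more in Suffolk, and 780 had estimates of opposite sign.

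**Figure D2:**
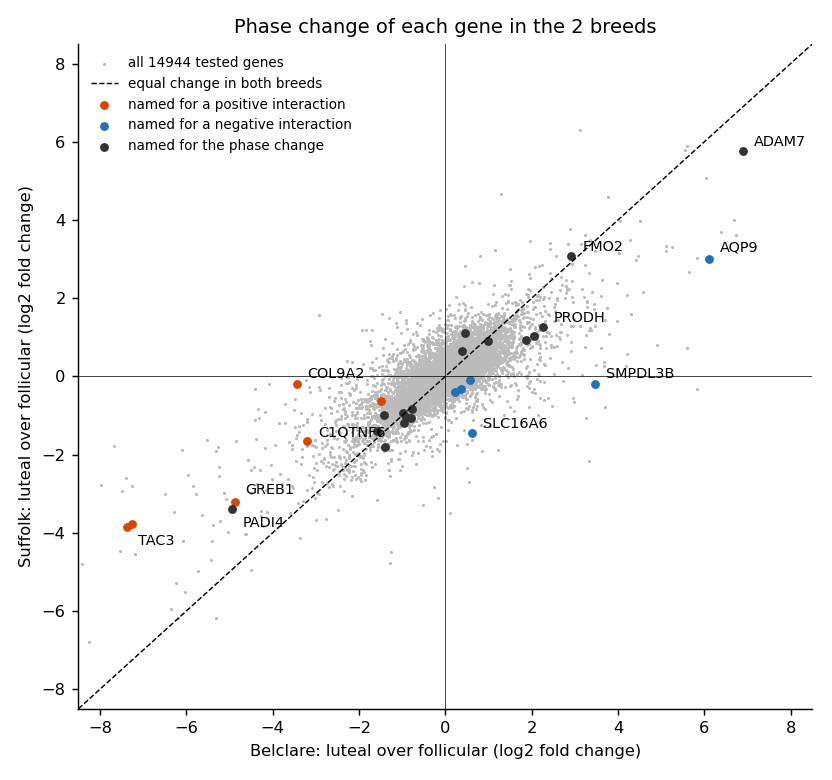
Each point is 1 of 14944 tested genes, with the luteal over follicular log2 fold change in Belclare on the horizontal and in Suffolk on the vertical axis. Most points follow the dashed line of equal change, TAC3, GREB1 and AQP9 lie closer to 0 in Suffolk than in Belclare, and 2 genes fall outside the axes.

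How large a difference could have been missed was also measured. The median standard error (SE) of the interaction was 0.22 on the log2 scale, and its 95% interval extended by a median of 0.44 to either side. For 6776 genes (45.3%) the whole interval lay within 1.5-fold either way, and for 10380 genes (69.4%) within 2-fold. For the remaining genes a difference above 2-fold between the breeds' phase changes was not excluded by the interval. Symbols were available for 1337 of the tested genes, nearly all from a table of genes higher in Suffolk than in Fur ewes, so that the named genes are not an even sample of the transcriptome.

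Of the named genes with a positive interaction, TAC3, GREB1, C1QTNF6 and PQLC2 fell in the luteal phase in both breeds, with the larger estimate in Belclare, and COL9A2 fell in Belclare alone. TAC3 encodes the precursor of neurokinin B, a tachykinin peptide that acts in reproductive neuroendocrine signalling. It is held by 2 identifiers with nearly the same pattern, ENSOARG00000010440 and ENSOARG00000007920, and how reads were divided between them is uncertain. The first had 44.7, 100 and 189 CPM (lowest, median and highest) in Belclare follicular ewes and 0.157, 0.633 and 1.83 CPM in Belclare luteal ewes. In Suffolk it had 69.2, 153 and 376 CPM in follicular and 1.04, 5.58 and 43.8 CPM in luteal ewes. The phases did not overlap in either breed, but 7 of the 10 Suffolk luteal ewes lay above every Belclare luteal ewe. The log2 fold change was -7.26 (SE 0.561) in Belclare and -3.78 (SE 0.449) in Suffolk, and the interaction was 3.47 (95% interval 2.02 to 4.93, adjusted p = 0.0923 in edgeR, 0.00227 in DESeq2's Wald test). For ENSOARG00000007920 the interaction was 3.52 (adjusted p = 0.114 in edgeR, 0.00842 in DESeq2's Wald test).

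GREB1, a transcriptional cofactor of the oestrogen receptor and itself a classical oestrogen-induced gene, had the same pattern at a higher level. Follicular levels were alike, with 302, 726 and 1103 CPM in Belclare and 373, 795 and 1096 CPM in Suffolk. Luteal levels were 13.8, 23.8 and 41.4 CPM in Belclare and 25.8, 55.3 and 261 CPM in Suffolk, where 6 ewes lay above every Belclare luteal ewe. The fall was 29.4-fold in Belclare and 9.22-fold in Suffolk, and the interaction was 1.67 (SE 0.457, adjusted p = 0.246 in edgeR, not called by DESeq2's Wald test). Without Suffolk luteal replicate 7 the interaction was 1.29, and over all 41 fits that left out 1 ewe it ran from 1.29 to 1.79.

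The remaining named genes with a positive interaction were C1QTNF6, PQLC2 and COL9A2 (identifiers with a symbol), none called by edgeR or DESeq2's Wald test. C1QTNF6, a secreted protein of the C1q and TNF family, had a median of 5.67 CPM in follicular and 0.748 CPM in luteal Belclare ewes, and of 7.62 and 2.81 CPM in Suffolk. Of the Suffolk luteal ewes, 9 lay above every Belclare luteal ewe, and its interaction was 1.54 (SE 0.446, adjusted p = 0.247 in edgeR). PQLC2, an exporter of cationic amino acids from lysosomes, fell 2.82-fold in Belclare and 1.55-fold in Suffolk. Its interaction of 0.87 (SE 0.232, adjusted p = 0.235 in edgeR) had the narrowest interval of the positive genes. COL9A2, a chain of the fibril-associated collagen IX, had 4.40, 11.4 and 167 CPM in Suffolk luteal ewes against 0.184, 3.31 and 6.07 CPM in Belclare luteal ewes. Within the Suffolk luteal group it was between 48.8 and 167 CPM in replicates 2, 3, 4 and 8 and at most 13.8 CPM in the other 6 ewes, and 9 of the 10 lay within the range of Suffolk follicular ewes. Its interaction was 3.25 (SE 0.907, adjusted p = 0.246 in edgeR).

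**Figure D3:**
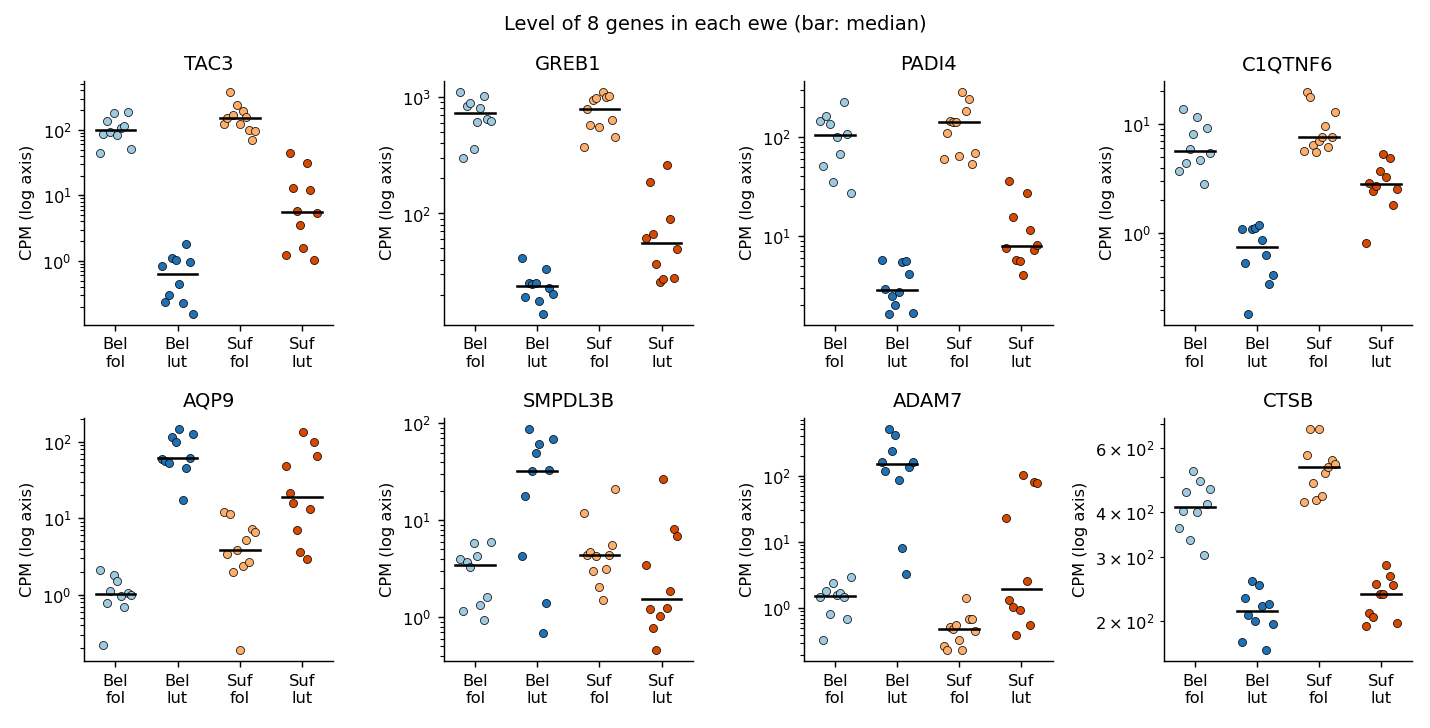
Each point is 1 ewe, with its level in CPM on a log axis, for 8 genes in the groups Bel fol, Bel lut, Suf fol and Suf lut (Belclare or Suffolk, follicular or luteal), and bars mark medians. TAC3 (ENSOARG00000010440), GREB1, PADI4 and C1QTNF6 stayed higher in most Suffolk than Belclare luteal ewes, and CTSB fell in both breeds without overlap between phases. SMPDL3B and ADAM7 were spread widely over the luteal ewes of both breeds. AQP9 ran from 2.92 to 135 CPM in Suffolk and from 17.4 to 148 CPM in Belclare luteal ewes.

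Of the 6 genes with a symbol and the smallest p for a negative interaction, AQP9 and SMPDL3B were called higher in luteal Belclare ewes, and the Belclare change of the other 4 was not called. AQP9, a channel for water, glycerol and other small solutes, had 0.223, 1.03 and 2.10 CPM in Belclare follicular ewes and 17.4, 60.8 and 148 CPM in Belclare luteal ewes. In Suffolk it had 0.189, 3.87 and 12.1 CPM in follicular and 2.92, 18.9 and 135 CPM in luteal ewes. The Belclare phases were apart, and 3 Suffolk luteal ewes (replicates 4, 5 and 7) were within the Suffolk follicular range. The increase was 68.5-fold in Belclare and 8.03-fold in Suffolk, and the interaction was -3.09 (95% interval -4.65 to -1.53, adjusted p = 0.214 in edgeR, 0.0195 in DESeq2's Wald test). The larger part of it lay at the follicular phase. The log2 difference of Suffolk over Belclare was 2.175 in follicular (adjusted p = 0.215 in edgeR) and -0.92 in luteal ewes (adjusted p = 0.251 in edgeR).

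SMPDL3B, a membrane-bound phosphodiesterase of the acid sphingomyelinase family, rose by 3.46 (SE 0.652) on the log2 scale in Belclare and had a Suffolk change of -0.19 (SE 0.639). Its levels were 0.692, 32.3 and 88.0 CPM in Belclare luteal and 0.455, 1.55 and 26.9 CPM in Suffolk luteal ewes. The 2 lowest Belclare luteal ewes were replicates 7 and 8, at 0.692 and 1.39 CPM, and the highest Suffolk luteal ewe was replicate 6. The interaction was -3.65 (SE 0.913, adjusted p = 0.217 in edgeR, 0.0214 in DESeq2's Wald test).

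The other named negative genes had smaller estimates. HLCS, the ligase that attaches biotin to carboxylases, had an interaction of -0.62 (SE 0.153, adjusted p = 0.203 in edgeR, 0.0481 in DESeq2's Wald test), with medians of 22.5 and 25.4 CPM in Belclare and 26.6 and 21.1 CPM in Suffolk, follicular and luteal. PLPP2, a phosphatase of lipid phosphates, had an interaction of -0.67 (SE 0.178, adjusted p = 0.235 in edgeR), and MMP15, a membrane-anchored matrix metalloproteinase, the same estimate of -0.67 (SE 0.189, adjusted p = 0.246 in edgeR). SLC16A6, a transporter of ketone bodies and other monocarboxylates, had a larger estimated breed difference at the follicular than at the luteal phase. Its follicular difference was not called (adjusted p = 0.0515 in edgeR). The follicular ranges overlapped, with at most 2.04 CPM in Belclare and at least 1.47 CPM in Suffolk. Its median was 0.667 CPM in Belclare and 2.87 CPM in Suffolk follicular ewes, and 0.957 and 0.975 CPM in luteal ewes, and its interaction was -2.07 (SE 0.572, adjusted p = 0.246 in edgeR). Neither PLPP2, MMP15 nor SLC16A6 was called by DESeq2's Wald test.

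Of the identifiers without a symbol, 2 with a positive and 2 with a negative interaction had the smallest p. ENSOARG00000019599 fell 2.58-fold in luteal Belclare ewes and had a Suffolk change of 0.26 (SE 0.225), an interaction of 1.63 (adjusted p = 0.0923 in edgeR). ENSOARG00000004733 had an interaction of 4.51 (adjusted p = 0.114 in edgeR), with medians of 18.8 and 3.08 CPM in Belclare and of 6.44 and 10.99 CPM in Suffolk. ENSOARG00000007230 had an interaction of -3.23 (adjusted p = 0.0923 in edgeR) at low levels, with a median of 2.15 CPM in Belclare luteal ewes and at most 1.04 CPM in Suffolk luteal ewes. ENSOARG00000014499 had an interaction of -0.90 (adjusted p = 0.12 in edgeR), and 7 Suffolk luteal ewes lay below every Belclare luteal ewe. DESeq2's Wald test called all 4.

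**Figure D4:**
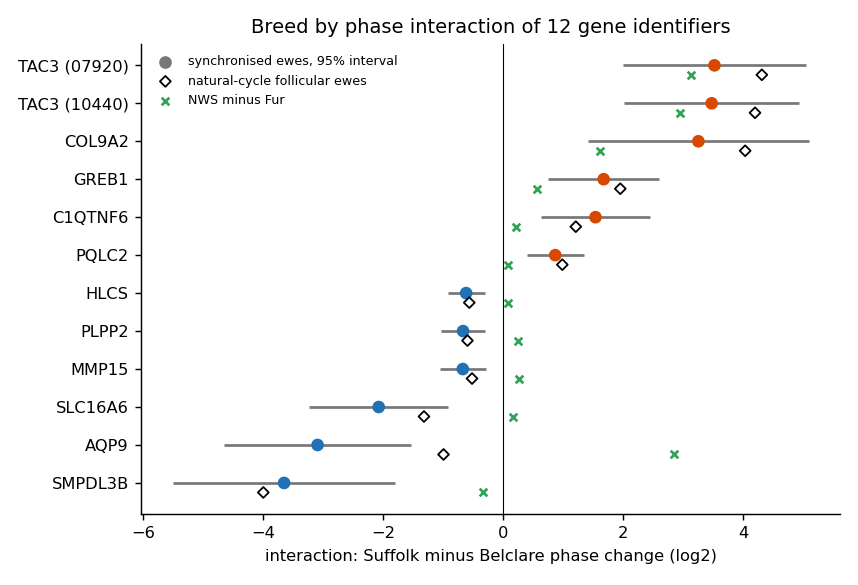
The horizontal axis gives the interaction (Suffolk minus Belclare phase change, log2) of the 12 gene identifiers named for it, with filled points and 95% intervals for synchronised ewes, open diamonds where natural-cycle follicular ewes replace the synchronised ones, and crosses for the same contrast of NWS minus Fur ewes. The diamonds share their luteal ewes with the filled points, and their cycle type differs between the phases. The order of NWS and Fur is an arbitrary choice, so the sign of the crosses has no set match in the filled points. For AQP9 the estimates are -3.09 (filled point), -0.99 (diamond) and 2.84 (cross).

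In GREB1, TAC3 and PADI4 the Suffolk luteal ewes did not behave as a uniform group. Spread between ewes was not theirs alone. The SD of first component scores was 22.6 in luteal and 23.3 in follicular Suffolk ewes, and 18.4 and 20.3 in Belclare. GREB1 was highest in replicates 7 (261 CPM) and 2 (188 CPM), followed by replicates 8 (90.4 CPM) and 3 (67.0 CPM), and lowest in replicates 5, 6 and 9 (25.8, 27.2 and 27.8 CPM). TAC3 (ENSOARG00000010440) was highest in replicates 2 and 7 too (43.8 and 31.01 CPM), and replicates 3 and 8 again followed (13.1 and 11.95 CPM). PADI4, a peptidylarginine deiminase that citrullinates proteins and is best known from neutrophils, was highest in the same 4 ewes (36.4, 27.3, 15.5 and 11.5 CPM in replicates 2, 7, 3 and 8).

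ADAM7, a metalloproteinase-like surface protein best known from the epididymis, divided the Suffolk luteal ewes in another way. Replicates 1, 6, 9 and 10 had between 23.3 and 102 CPM and the other 6 ewes between 0.398 and 2.62 CPM, where Suffolk follicular ewes had at most 1.45 CPM. Belclare luteal replicates 8 and 7 had 3.28 and 8.02 CPM, and the remaining Belclare luteal ewes 85.5 to 512 CPM. Its phase change was called in both breeds (adjusted p = 6.56e-06 in Suffolk and 4.28e-07 in Belclare in edgeR), and its interaction was -1.14 (SE 1.19, adjusted p = 0.772 in edgeR). The interval of that interaction, from -3.55 to 1.28, covers differences in either direction.

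Leaving out 1 ewe changed the number of interaction calls in 6 of 41 fits. The count was 23 without Suffolk luteal replicate 6, 9 without Belclare luteal replicate 8, 5 without Suffolk luteal replicate 9, 2 without Belclare luteal replicate 7, and 1 without Suffolk follicular replicate 2 or 4. TAC3 passed the threshold without Suffolk luteal replicate 6 (adjusted p = 0.0282 for both identifiers in edgeR), as did SMPDL3B (0.0282) and AQP9 (0.0412). The count stayed at 0 without both Suffolk luteal replicates 2 and 7.

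At each phase the breeds could also be compared directly, with the same libraries. At the follicular phase 3 genes (0.0201%) differed between Suffolk and Belclare, 2 higher (0.0134%) and 1 lower (0.00669%) in Suffolk. That count ran from 0 (without Belclare follicular replicate 10) to 7 (without Belclare follicular replicate 2) when 1 ewe was left out, moved by more than 1.5 times in 12 of the 41 fits, and was 31 with DESeq2's Wald test. The study, which used a DESeq2 likelihood ratio test at the same thresholds, reported more genes than edgeR called here for this comparison. At the luteal phase 825 genes (5.52%) differed, 469 higher (3.14%) and 356 lower (2.38%) in Suffolk. The luteal count ran from 447 to 1451 when 1 ewe was left out. It moved by more than 1.5 times without Belclare luteal replicates 3, 7 or 10 (447, 1451 and 504) and without Suffolk luteal replicates 4, 5, 6 or 9 (472, 548, 1407 and 1265). Without both Suffolk luteal replicates 2 and 7 it was 528. TAC3, GREB1, PADI4, C1QTNF6, PQLC2 and COL9A2 were all among the genes higher in luteal Suffolk ewes, and SMPDL3B among those lower, whereas AQP9 was not called (log2 difference -0.92, adjusted p = 0.251 in edgeR). These counts are not a test of the difference between the phases, which is the interaction.

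Several genes named by the smallest p changed with phase to a like extent in both breeds. CTSB, a lysosomal cysteine protease, had 305, 412 and 518 CPM in Belclare follicular and 166, 214 and 259 CPM in luteal ewes. In Suffolk it had 426, 531 and 678 CPM in follicular and 194, 238 and 286 CPM in luteal ewes, so that the phases were apart in both breeds. It fell 1.95-fold in Belclare and 2.27-fold in Suffolk, and the interval of the interaction, -0.501 to 0.0594, lay within 1.5-fold.

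FUCA1, which removes fucose from glycans, fell 2.05-fold in Suffolk and 1.88-fold in Belclare. SMPD1, the acid sphingomyelinase, fell 1.79-fold in Suffolk and 1.71-fold in Belclare. These falls passed the test in both breeds, with no overlap between phases. TMED3, a cargo receptor of the early secretory pathway, fell 3.48-fold in Suffolk and 2.63-fold in Belclare, and WIPI1, which acts in autophagosome formation, 2.63-fold and 2.99-fold.

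Genes higher in the luteal phase that were named by the smallest p included TFAP4, FMO2, PRODH, ANKRD10 and KYAT1. TFAP4, a basic helix-loop-helix transcription factor, rose 1.89-fold in Suffolk and 2.00-fold in Belclare, with an interaction of -0.08 (95% interval -0.462 to 0.299). FMO2, a flavin monooxygenase, rose 8.45-fold in Suffolk and 7.56-fold in Belclare. PRODH, the first enzyme of proline breakdown, rose 2.40-fold in Suffolk and 4.77-fold in Belclare, with an interaction of -0.99 (SE 0.407, adjusted p = 0.381 in edgeR). KYAT1, an aminotransferase of the kynurenine pathway, was a DEG in Suffolk (2.16-fold) and was 1.36-fold higher in Belclare, below the fold threshold (adjusted p = 0.0586 in edgeR). Under DESeq2's Wald test that adjusted p was 0.0419, with all 12 groups in 1 fit 0.0241, and it was under 0.05 in 6 fits that left out 1 ewe. Its interaction of 0.66 had an adjusted p of 0.381 in edgeR. ANKRD10 rose 1.57-fold in Suffolk and 1.31-fold in Belclare, below the fold threshold in the latter.

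SETD7, a lysine methyltransferase, fell in both breeds. It had 37.2, 49.5 and 74.2 CPM in Belclare follicular and 14.4, 19.6 and 24.9 CPM in luteal ewes, and fell 2.66-fold in Belclare and 1.97-fold in Suffolk (interaction 0.43, adjusted p = 0.335 in edgeR). GRAMD1B, a cholesterol transfer protein, and ARMCX4 rose 3.66-fold and 4.16-fold in Belclare and 1.91-fold and 2.06-fold in Suffolk.

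Gene lists were then described by their counts, beside 8.44% higher and 8.85% lower among all genes in Suffolk, and 10.9% and 12.5% in Belclare. For the interaction, 11% of all genes had an unadjusted p under 0.05, 6.2% positive and 4.76% negative. List members need a symbol, and nearly all symbols come from genes higher in Suffolk than in Fur ewes at the synchronised follicular phase. The Suffolk follicular libraries of that comparison are also used here, so the shares among all genes are not a matched background. The median over all genes was 0.01 in Suffolk and -0.007 in Belclare on the log2 scale. In the extracellular matrix list, 17 of 30 identifiers were lower in luteal Suffolk ewes and 23 of 30 in luteal Belclare ewes, and none was higher. Its median change was -0.74 in Suffolk and -1.07 in Belclare, and 22 of the 30 changed more in Belclare. None had an interaction that passed the threshold, and 7 had an unadjusted p under 0.05, 6 of them positive, 3 of which are identifiers of THBS2 with nearly the same values.

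THBS2, a matricellular thrombospondin of connective tissue, shows the pattern of this list. It (ENSOARG00000005037) had 38.0, 72.4 and 222 CPM in Belclare follicular and 4.53, 9.80 and 16.2 CPM in luteal ewes, without overlap. In Suffolk it had 37.7, 99.8 and 328 CPM in follicular and 9.02, 25.2 and 131 CPM in luteal ewes, and 3 luteal ewes were within the follicular range. It fell 8.45-fold in Belclare and 3.37-fold in Suffolk, with an interaction of 1.33 (SE 0.552, adjusted p = 0.387 in edgeR). In Belclare and Suffolk, COMP, another thrombospondin, fell 3.87-fold and 2.62-fold, MMP2, a gelatinase, had log2 fold changes of -1.18 and -0.63, and LOXL2, which cross-links collagen, of -1.11 and -0.81.

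In bulk RNA, fewer cells of a type and less RNA per cell cannot be told apart. Summed fibroblast markers, 2 of which (FAP and FBLN1) are also among the matrix identifiers tested, moved with the matrix genes. The sum of 7 identifiers ran from 1480 to 3702 CPM in Belclare follicular and from 470 to 1489 CPM in Belclare luteal ewes, and from 2041 to 5780 and from 1176 to 2722 CPM in Suffolk. Of these markers 4 of 7 were lower in luteal Belclare and 3 of 7 in luteal Suffolk ewes. Their part in the matrix result was not tested.

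**Figure D5:**
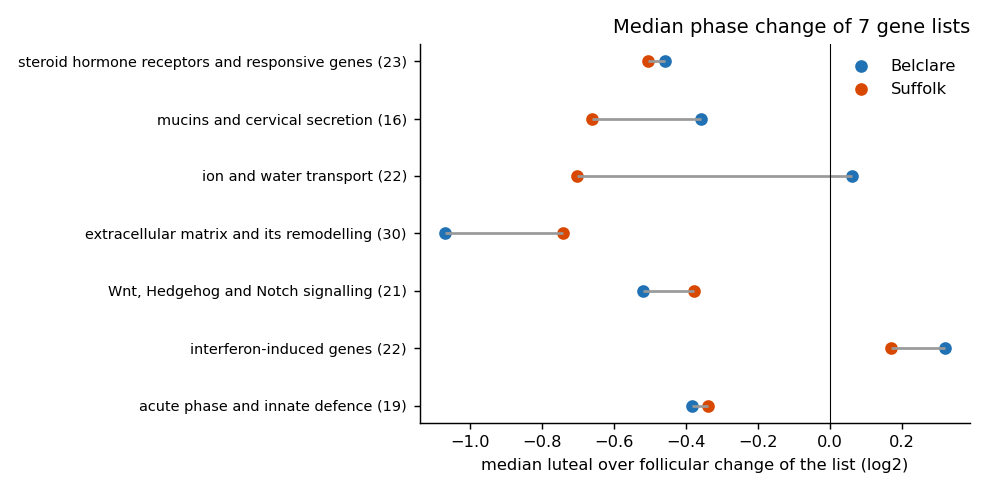
The horizontal axis gives the median luteal over follicular log2 fold change over each of 7 gene lists, with the number of tested identifiers in brackets, in Belclare and Suffolk. The medians differ most for ion and water transport (-0.70 in Suffolk and 0.06 in Belclare), and the extracellular matrix list is lower in both breeds.

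The ion and water transport list had the largest difference between the breeds' medians among the 7 lists plotted. The 4 smooth muscle markers tested, which are not plotted, had medians of 1.2 in Suffolk and -0.53 in Belclare, and 0 had an unadjusted interaction p under 0.05. The summed level of the 6 smooth muscle identifiers had a higher median in the luteal phase in both breeds. It was 207 and 516 CPM in Belclare and 273 and 583 CPM in Suffolk, follicular and luteal. Belclare follicular replicate 2, at 13839 CPM, enters the Belclare estimates. Of the 22 transport genes, 1 was higher and 11 were lower in the luteal phase in Suffolk. In Belclare 7 were higher and 8 lower, and the medians of the transport list were -0.70 in Suffolk and 0.06 in Belclare. None passed the threshold for the interaction, 9 had an unadjusted p under 0.05, and 8 of these were negative. Besides AQP9 and SLC16A6 they included FXYD4, SLC5A8, SLC4A11 and S100G, which are named here after their values were seen.

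FXYD4, a small membrane regulator of ion transport, had a log2 fold change of -3.48 in Suffolk and 0.10 in Belclare (interaction -3.59, adjusted p = 0.246 in edgeR). SLC5A8, a sodium-coupled monocarboxylate transporter, had -0.58 and 1.66 (interaction -2.25, adjusted p = 0.292 in edgeR). S100G, a calcium-binding protein, had -1.11 and 0.08 (adjusted p = 0.355 in edgeR). SLC4A11, a membrane transporter of the bicarbonate transporter family, had 0.52 and 1.58.

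Other transporters fell in both breeds. CFTR, the chloride channel of secretory epithelia, had log2 fold changes of -1.18 in Suffolk and -2.04 in Belclare, and AQP5, an aquaporin of glands, of -0.82 and -1.18. ATP12A, a proton pump, fell 7.88-fold in Suffolk and 22.7-fold in Belclare (interaction 1.53, SE 0.635, adjusted p = 0.386 in edgeR), from medians of 3.97 and 6.58 CPM. Of 14 columnar epithelium identifiers, 4 were lower in luteal Suffolk ewes, and 1 was higher and 3 lower in luteal Belclare ewes. The median of their summed level was 3545 CPM in follicular and 2430 CPM in luteal Suffolk ewes, and 3755 and 2908 CPM in Belclare. Of 5 ciliated epithelium identifiers, 2 were higher in luteal Belclare ewes and 0 were called in Suffolk, and the median of their sum was 194 CPM in follicular and 289 CPM in luteal Belclare ewes, and 183 and 186 CPM in Suffolk. The part of either in the transport list was not tested.

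Among steroid hormone receptors and responsive genes, 8 of 23 were lower and none higher in luteal Suffolk ewes, and 10 were lower and 3 higher in luteal Belclare ewes. The list's 7 genes with an unadjusted interaction p under 0.05 were 3 positive and 4 negative. HSD11B1, which regenerates active glucocorticoid, had 9.74, 21.0 and 32.8 CPM in Belclare follicular and 0.523, 1.26 and 5.62 CPM in luteal ewes. Its fall was 12.1-fold in Belclare and 11.2-fold in Suffolk, with an interaction of 0.11 (95% interval -0.935 to 1.15). BMP2, a secreted growth factor, had log2 fold changes of -1.81 in Belclare and -1.66 in Suffolk, and KLF9, a hormone-responsive transcription factor, of -0.83 and -0.78.

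OXTR, the oxytocin receptor, gave the largest interaction of that list, and 1 ewe decided it. Suffolk luteal replicate 7 had 230 CPM, and the other 9 Suffolk luteal ewes had between 0.114 and 8.31 CPM, where Suffolk follicular ewes had between 2.69 and 134 CPM. Belclare ewes had 1.61, 7.69 and 33.7 CPM at the follicular phase and at most 1.36 CPM at the luteal phase. The interaction was 4.08 (SE 1.38, adjusted p = 0.297 in edgeR), and 0.36 without Suffolk luteal replicate 7.

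In the mucin and secretion list, 7 of 16 genes were lower in luteal Suffolk and 6 in luteal Belclare ewes, and none was higher. MUC16, a membrane mucin, fell 2.34-fold in Suffolk and 2.72-fold in Belclare, from medians of 1739 and 1564 CPM to 624 and 543 CPM. MUC5B, the main gel-forming mucin of cervical mucus, had log2 fold changes of -1.28 and -1.33. ST6GAL2, which adds sialic acid to glycans, fell 7.96-fold and 7.82-fold, with an interaction of -0.02 (95% interval -1.06 to 1.01).

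WFDC2, a secreted protein of glandular epithelium, was called in neither breed, with medians of 873 CPM in follicular and 1128 CPM in luteal ewes against 679 and 563 CPM in Suffolk. Its interaction was -0.86 (SE 0.381, adjusted p = 0.421 in edgeR), and 7 Suffolk luteal ewes lay below every Belclare luteal ewe. MUC5AC, the other gel-forming mucin, had an interaction of -3.11 (SE 1.37, adjusted p = 0.423 in edgeR) that depended on single ewes. Belclare luteal replicate 7 had 325 CPM, the others at most 11.9 CPM, and without it the interaction was -0.15. In Suffolk the highest follicular ewe had 729 CPM against a median of 13.7 CPM. The highest Suffolk luteal ewe had 120 CPM against a median of 12.5 CPM.

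Wnt, Hedgehog and Notch genes had 7 of 21 members lower and none higher in luteal Suffolk ewes, and 7 lower and 4 higher in luteal Belclare ewes. WNT10B, a Wnt ligand, fell 1.69-fold in Suffolk and 1.67-fold in Belclare, with an interaction of -0.02 (95% interval -0.343 to 0.311). NOTUM, a secreted enzyme that inactivates Wnt ligands, had medians of 3.96 and 0.708 CPM in Belclare and of 4.33 and 0.978 CPM in Suffolk, follicular and luteal, with 7.51 and 7.56 CPM in Suffolk luteal replicates 8 and 4. Its interaction was 1.63 (SE 0.571, adjusted p = 0.309 in edgeR). WLS, the carrier that Wnt ligands need for secretion, rose 1.84-fold in Belclare and had a Suffolk change of -0.01 (SE 0.214), with an interaction of -0.89 (adjusted p = 0.307 in edgeR). APCDD1, an inhibitor of Wnt signalling, fell 2.19-fold in Belclare and 1.46-fold, below the fold threshold, in Suffolk.

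Interferon-induced genes were called in Belclare alone, 5 of 22 higher in the luteal phase against 0 in Suffolk, but none had an unadjusted interaction p under 0.05, so a difference between the breeds was not shown. The list medians were 0.32 in Belclare and 0.17 in Suffolk. ISG15, a ubiquitin-like protein induced by interferon, had 2.44, 5.28 and 21.1 CPM in Belclare follicular and 8.98, 13.7 and 123 CPM in luteal ewes, and 2.98, 6.99 and 15.3 CPM and 3.96, 17.6 and 33.1 CPM in Suffolk. Its interaction was -1.11 (95% interval -2.43 to 0.207), and -0.43 without Belclare luteal replicate 4, which had the 123 CPM. ZC3HAV1, an antiviral zinc finger protein, fell in both breeds, 1.46-fold in Suffolk and 1.39-fold in Belclare, below the fold threshold.

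Of the leucocyte markers, 1 of 23 was higher and 3 were lower in luteal Suffolk and 9 higher and 3 lower in luteal Belclare ewes. Of these markers 4 had an unadjusted interaction p under 0.05, all negative, with a lowest edgeR adjusted p of 0.335. They are both identifiers of IGHG3, an immunoglobulin heavy chain, whose division of reads is uncertain, TNFRSF13B, a B cell receptor, and IRF4, a transcription factor of lymphocytes, named here after their values were seen. Immunoglobulin identifiers dominated the summed level of this list, and without them its median was 221 CPM in Belclare follicular and 170 CPM in Belclare luteal ewes, the highest luteal ewes being replicates 7 and 4 at 458 and 229 CPM. In Suffolk the medians were 280 and 229 CPM, follicular and luteal. Of the neutrophil markers, CD177, CXCR2 and PADI4 were tested, and all 3 were lower in the luteal phase in both breeds.

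In the acute phase list, 6 of 19 identifiers were lower and 1 higher in luteal Suffolk ewes, and 8 lower and 3 higher in luteal Belclare ewes. HMOX1, the inducible haem oxygenase, fell 1.72-fold in both breeds, and the 95% interval of its interaction was -0.387 to 0.392. SERPINA11, a serpin, had log2 fold changes of -3.17 in Suffolk and -1.58 in Belclare, at luteal levels of at most 0.734 CPM. IL6R, the interleukin 6 receptor, rose 1.93-fold in Belclare, and its Suffolk change of 0.37 (SE 0.19) did not pass the test (interaction -0.57, adjusted p = 0.442 in edgeR).

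A further list holds 10 genes that the study picked for the difference between these breeds, on libraries that are also used here, so that it is not independent evidence. Of these, 3 were higher and 3 lower in the luteal phase in each breed, and 3 (AQP9, SLC16A6 and CCER2) had an unadjusted interaction p under 0.05, all negative.

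A related contrast used natural-cycle follicular ewes. Here 10 Belclare and 8 Suffolk natural follicular ewes replaced the synchronised follicular ewes, while the luteal ewes were the same, so that the estimates are not independent. The cycle type then differs between the phases, so a breed difference in the effect of synchronisation cannot be told apart from the interaction. Of 14904 genes, edgeR called 0, 1621 (10.9%) had an unadjusted p under 0.05, and DESeq2 called 56 by the Wald and 43 by the likelihood ratio test. The interaction was 4.20 for TAC3 (ENSOARG00000010440, adjusted p = 0.103 in edgeR), 1.95 for GREB1, 2.45 for PADI4, 0.98 for PQLC2 and -4.00 for SMPDL3B. For ENSOARG00000019599, one of the 3 identifiers of lowest adjusted p with synchronised ewes, it was 0.49 (SE 0.392, adjusted p = 0.683 in edgeR) against 1.63. It was 2.98 for ENSOARG00000004733, -0.82 for ENSOARG00000014499, 4.03 for COL9A2, 1.21 for C1QTNF6 and -1.32 for SLC16A6. For AQP9 it was -0.99 (adjusted p = 0.754 in edgeR).

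A contrast of the same form was taken in the Norwegian breeds, in other animals. The study describes both of these breeds as of high fertility. Which of them takes the place of Suffolk is therefore an arbitrary choice, and the sign of these estimates has no set match in those of Suffolk and Belclare. In 8 follicular and 9 luteal Fur ewes and 10 follicular and 8 luteal Norwegian White Sheep (NWS) ewes, the phase change of NWS minus that of Fur was tested in 14967 genes. edgeR called 0, both DESeq2 tests called 0, and 496 (3.31%) had an unadjusted p under 0.05. TAC3 (ENSOARG00000010440) had a log2 fold change of -7.32 (SE 0.856) in Fur and of -4.38 (SE 0.637) in NWS ewes, those of Belclare and Suffolk being -7.26 and -3.78. For GREB1 it was -3.01 (SE 0.444) in Fur and -2.45 (SE 0.433) in NWS, and for PQLC2 -0.96 and -0.88. The TAC3 (ENSOARG00000010440) interaction between NWS and Fur was 2.945 (SE 1.07), which was not called. That of COL9A2, C1QTNF6 and SMPDL3B was 1.62, 0.22 and -0.34, against 3.25, 1.54 and -3.65 between Suffolk and Belclare. GREB1 and PQLC2 were also positive here, at 0.56 and 0.08. HLCS, PLPP2, MMP15 and SLC16A6, negative between Suffolk and Belclare, had the opposite sign here, at 0.08, 0.24, 0.27 and 0.16. AQP9 had a log2 fold change of 1.90 (SE 0.881, adjusted p = 0.0893 in edgeR) in Fur and rose by 4.74 (SE 0.947) in NWS, so its interaction between these breeds was 2.84 (adjusted p = 1 in edgeR).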

How the data were processed

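Read counts per gene were analysed, with each library treated as 1 ewe. Reads had been trimmed by the authors and mapped to Oar_v3.1 with STAR 2.6.1b, keeping unique pairs, and the authors deposited raw counts per Ensembl identifier made with featureCounts (Subread 1.6.3). Pairs matching several places are therefore missing, and whether counting used the strand of the stranded libraries is not given in the sources used here. Groups follow the labels. The 1 library whose title and labels disagree was left out. Genes with at least 1 CPM in at least 10 ewes were kept (14944 of 27054). The 4 groups were fitted with edgeR 4.0.16 in R 4.3.3 (TMM, quasi-likelihood F test, Benjamini-Hochberg adjustment), and genes with adjusted p under 0.05 and a fold change above 1.5 were called. Standard errors are Wald errors of that fit, and CPM use TMM library sizes. P-values measure the spread between ewes. DESeq2 1.42.0 was an alternative. The tests were tried on simulated data.

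Symbols for 1352 identifiers came from the study's supplementary tables, names only. Named genes were the 6 with a symbol of smallest interaction p in each direction, the 6 of smallest phase p in each direction and breed, 2 unnamed identifiers in each direction, and 2 by interaction and 2 by phase from each list. Members and lists were chosen with earlier results of these data known. Alternatives were other size factors, tests, low count filters and thresholds, all groups in 1 fit, a replicate block, a smooth muscle covariate (ACTG2 and DES), robust dispersion, and each ewe left out. Depth per ewe was 12238996 to 31261671 counts. Some genes that the rule names are not reported here.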

Additional observations from a re-analysis of the deposited data

Results flagged for a closer look

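Levels of the named identifiers and the total counts were examined in the 3 groups of 10 ewes for a ewe whose gap to its nearest neighbour, on the log2 scale, was large against the range of its group (Dixon's test at 95%). The 11 Suffolk follicular ewes were not examined in this way. Of 159 groups of values 7 (4.4%) had such a ewe, and chance gives about 1 in 20. Suffolk luteal replicate 7 stood above its group in OXTR at 230 CPM, the next ewe having 8.31 CPM, and replicate 8 in FUCA1 at 117 CPM (next 90.0 CPM). Belclare luteal replicate 7 stood above its group in MUC5AC at 325 CPM (next 11.9 CPM). Belclare luteal replicate 3 stood below its group in COL9A2 at 0.184 CPM (next 1.49 CPM). Belclare follicular replicate 2, the ewe with the high smooth muscle sum, was lowest in WFDC2 at 309 CPM (next 602 CPM) and in PLPP2 at 56.3 CPM (next 79.0 CPM). Belclare follicular replicate 1 was lowest in COMP at 2.10 CPM (next 3.95 CPM).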

How the results depend on the processing

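The interaction count of 0 stayed at 0 with DESeq2 size factors, with no filter on low counts, with at least 10 counts in every ewe, without a fold threshold, with the replicate block, with the smooth muscle covariate and with robust dispersion. It was 30 with DESeq2's Wald test, 21 with its likelihood ratio test and 36 with all 12 groups in 1 fit, and ranged from 0 to 23 when 1 ewe was left out. With natural follicular ewes the count of 0 became 56 and 43 with the Wald and likelihood ratio tests, and no alternative changed that of Fur and NWS ewes. The phase counts of 2583 in Suffolk and 3489 in Belclare became 5640 and 6500 without a fold threshold, and ranged from 2414 to 2971 and from 3267 to 3741 when 1 ewe was left out. Of the named interactions, MUC5AC turned to 1.85 in both DESeq2 tests and 0.26 with the replicate block, and no other changed sign.

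Replicate numbers are shared by different ewes and did not pair them: over 60 pairs of the same number the mean correlation of deviations from group means was -0.0361 (from -0.421 to 0.524), and 3 of 41 ewes correlated best with their own number. With the block 0 genes were called for the interaction, 2646 for Suffolk and 3302 for Belclare. On average over the libraries 3 counts are 0.173 CPM, so a luteal level of TAC3 or OXTR near that value is not well measured.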

Other observations

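The library whose title names a natural follicular Suffolk ewe and whose labels name an induced luteal one had 15387419 counts. It held 128 CPM of GREB1, 61.5 and 32 CPM of the TAC3 identifiers ENSOARG00000007920 and ENSOARG00000010440, 24.9 CPM of PADI4 and 1.17 CPM of OXTR.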
